A study of Homo sapiens with 6 samples.

Results

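The genes described here are 10 components of transforming growth factor beta (TGF-beta) signaling, among the 58884 Ensembl genes counted in HSC-4, an established human oral squamous cell carcinoma cell line. They were taken by their current gene symbols and comprise 6 feedback inhibitors (*PMEPA1*, *LDLRAD4*, *SMAD7*, *SMAD6*, *SKI* and *SKIL*), 2 ligands (*TGFB1* and *TGFB2*) and 2 receptors (*TGFBR1* and *TGFBR2*). All 10 were matched, and 9 of them were among the 15001 genes with enough reads to be tested. The exception was *LDLRAD4*. The set was chosen on the measured fold change of *PMEPA1* between the groups below, which was known from earlier results, and the other genes were picked by their role in the pathway. The differences of these 10 genes between the groups are therefore given as a description and not as a test. The treated group received the γ-secretase inhibitor DAPT at 50 µM for 24 h (3 libraries) and was set against 3 control libraries. The study's methods name DMSO as the vehicle of the controls, whereas the control count columns carry the unexplained letters GM. If these cultures received growth medium alone, effects of the vehicle and of DAPT cannot be told apart. All 6 libraries come from this single cell line, and the labels do not say whether the replicates were separate cultures, so the p-values measure the spread between these libraries.

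TGF-beta ligands are secreted in a latent form, are released outside the cell, and bind the type II receptor *TGFBR2*, which phosphorylates the type I receptor *TGFBR1*. The active receptor phosphorylates SMAD2 and SMAD3, which enter the nucleus with SMAD4 and switch on target genes. Several of these targets encode inhibitors of the same pathway, so their transcripts are widely read as markers of its activity. In normal squamous epithelium, TGF-beta restrains growth, while in carcinoma it is also linked to invasion. DAPT was used in the study as an inhibitor of Notch signaling. Whether it also acts directly on TGF-beta signaling was not tested. It stops γ-secretase from cutting Notch receptors, a step they need to signal, and the Notch target gene *HES1* was therefore used to check the treatment. *HES1* was at 42.5, 50.3 and 48.2 CPM (read counts scaled to a common library size) in the control libraries and at 27.9, 27.2 and 27.3 CPM in the DAPT libraries.

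Promoter sequences are shown for 4 of the feedback inhibitors, *PMEPA1*, *SKIL*, *SMAD7* and *SMAD6*. Each line holds the 250 bases before the RefSeq transcription start (build GRCh38.p14), on the strand of the gene. Capitals mark matches on either strand to 3 motifs, namely the palindromic SMAD element GTCTAGAC, the shorter CAGAC and, as a form of the site of RBPJ, GTGGGAA. RBPJ is the DNA-binding partner of Notch. The first and second motif share no whole match. The intervals are chr20:57711473-57711722 (minus strand) for *PMEPA1*, chr3:170357465-170357714 (plus strand) for *SKIL*, chr18:48950966-48951215 (minus strand) for *SMAD7* and chr15:66701986-66702235 (plus strand) for *SMAD6*.
PMEPA1: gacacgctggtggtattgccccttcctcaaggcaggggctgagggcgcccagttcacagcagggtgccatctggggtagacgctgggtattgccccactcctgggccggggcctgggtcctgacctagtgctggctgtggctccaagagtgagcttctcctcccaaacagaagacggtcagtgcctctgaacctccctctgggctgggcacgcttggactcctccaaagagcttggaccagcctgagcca
SKIL: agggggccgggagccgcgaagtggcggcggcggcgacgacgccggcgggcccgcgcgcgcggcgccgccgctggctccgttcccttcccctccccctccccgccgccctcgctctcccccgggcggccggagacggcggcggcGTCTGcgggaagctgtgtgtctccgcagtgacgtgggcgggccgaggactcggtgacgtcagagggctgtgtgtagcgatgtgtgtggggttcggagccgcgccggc
SMAD7: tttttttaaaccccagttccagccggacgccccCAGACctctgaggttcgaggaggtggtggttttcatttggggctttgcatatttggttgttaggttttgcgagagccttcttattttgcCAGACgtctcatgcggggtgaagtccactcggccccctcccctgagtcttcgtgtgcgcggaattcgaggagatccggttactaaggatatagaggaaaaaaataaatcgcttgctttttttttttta
SMAD6: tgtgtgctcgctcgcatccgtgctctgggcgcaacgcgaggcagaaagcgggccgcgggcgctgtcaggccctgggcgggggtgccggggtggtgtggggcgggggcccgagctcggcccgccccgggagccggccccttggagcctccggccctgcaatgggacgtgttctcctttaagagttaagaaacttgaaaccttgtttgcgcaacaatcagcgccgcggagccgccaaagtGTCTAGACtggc
The *PMEPA1* window held 0 matches to the 3 motifs. *SKIL* held 1 CAGAC match and *SMAD7* held 2, but 38.0% of all 35116 promoters of the same length held at least 1. Among the genes whose sequence is not shown, *TGFB2* held 2 CAGAC matches and *LDLRAD4* and *TGFBR1* held 1 each. *TGFB1* and *TGFBR2* held 0. *SMAD6* held the palindrome, which was present in 0.182% of all promoters. GTGGGAA was in 5.43% of all promoters and in none of the 9 promoters found for the 10 genes (*SKI* had no entry). A match describes letters in this window and not a bound site, and 250 bases leave out introns and distal enhancers. The *SMAD7* window lies inside the gene as counted (48919853 to 48952052), so the sequence before the outermost annotated start was not searched. The *PMEPA1* and *SKIL* windows lie partly inside the genes as counted (57648392 to 57711536 and 170357678 to 170396835).

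Total counts lay between 12276313 and 16317672 per library, so that 3 reads, taken as the smallest signal, correspond to 0.184 to 0.244 CPM. This limit covers counting error only. Control replicate 1 stood apart from the other libraries. All 11 fibroblast markers that were examined were highest in it, and their summed level was 637 CPM, against 54.0 to 60.7 CPM in the other 5 libraries. *COL1A2*, a chain of type I collagen, was at 215 CPM in this library and at 0.195 to 2.02 CPM elsewhere. *PDGFRA*, a receptor of fibroblasts, was at 13.8 CPM in this library and at most at 0.166 CPM elsewhere. Altogether 66 genes were at 1 CPM or more and at least 10-fold above every other library in control replicate 1, while 0 genes met this rule in any of the other 5 libraries. The 6 smooth muscle markers summed to 52.9 CPM there and to 38.6 to 45.4 CPM elsewhere, and 1 of them was highest in it. Endothelial and immune markers did not share the pattern. Their summed levels in control replicate 1 (1.81 and 10.5 CPM) lay within the ranges of the other libraries (1.24 to 2.99 CPM and 8.92 to 12.9 CPM). *PTPRC*, the common leukocyte antigen, had at most 0.146 CPM in any library. The 8 markers of squamous epithelium summed to 5186 to 5361 CPM in the controls and to 3339 to 3479 CPM with DAPT. This sum fell with the treatment as *PMEPA1* did, but not every marker did. The keratin gene *KRT5* fell from 2701 to 1315 CPM (log2 fold change -1.04), and *KRT6A* (-1.48), *KRT17* (-0.88) and *TP63* (-0.58), which encodes a transcription factor of basal cells, fell too. The adhesion genes *CDH1* (0.27) and *EPCAM* (0.27) rose, and *DSG3* (-0.06) was not called. *KRT14*, another keratin of basal squamous cells, was at most at 3.54 CPM and was called lower (-2.79). The part of these markers in the results below was not tested. Results that rest on control replicate 1 are therefore given with and without it, and the part of fibroblast RNA in them was not tested.

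**Figure D1:**
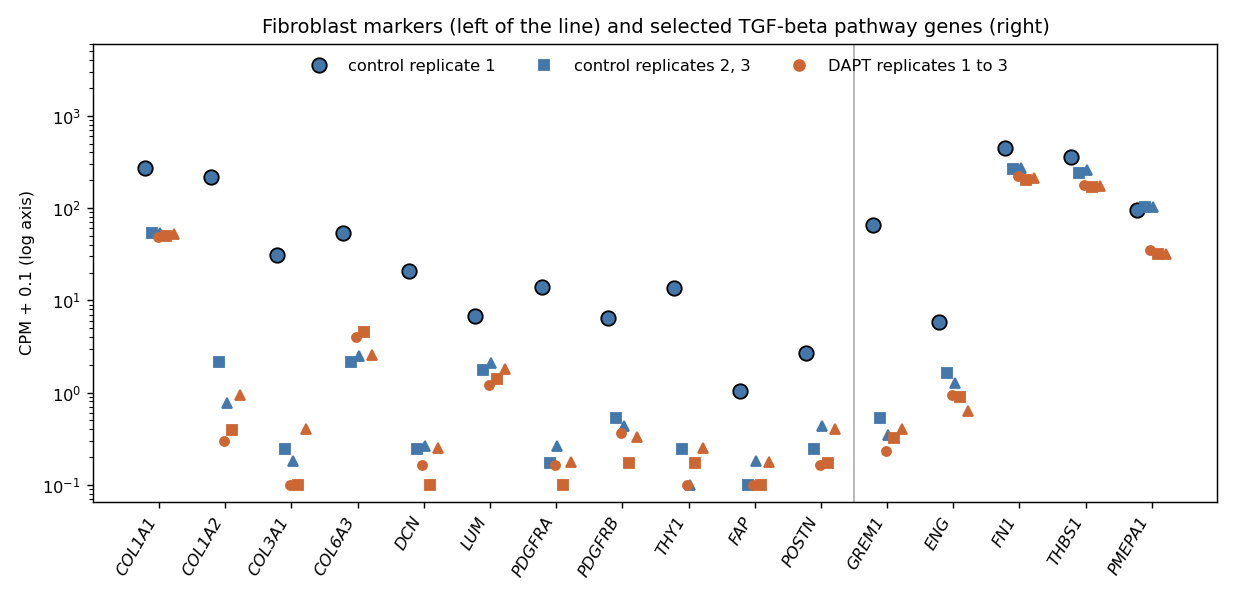
CPM + 0.1 on a log axis for the 11 fibroblast markers (left of the line) and 5 TGF-beta pathway genes (right), 1 point per library, with control libraries in blue, DAPT libraries in orange and control replicate 1 as the outlined circle. Control replicate 1 lies above the other 5 libraries for all 11 markers and for *GREM1*, *ENG*, *FN1* and *THBS1*, while its *PMEPA1* level lies beside those of the other controls.

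*PMEPA1* (ENSG00000124225, chromosome 20, 57648392 to 57711536, minus strand) encodes a membrane protein that sequesters SMAD2 and SMAD3 away from the receptor. It was at 95.2, 101 and 104 CPM in the control libraries and at 35.0, 31.9 and 31.7 CPM in the DAPT libraries, from 412 to 1529 reads each. Every DAPT library lay far below every control library, and the libraries within a group differed little. The SD was 4.32 CPM in the controls and 1.88 CPM with DAPT, around a treated mean of 32.8 CPM (n = 3 each). The decrease was 3.04-fold, with a log2 fold change of -1.60 ± 0.06. Errors of log2 fold changes are standard errors throughout. Without control replicate 1, which had the lowest *PMEPA1* level of the controls, the log2 fold change was -1.64 ± 0.06. Over all 14 alternative fits it ran from -1.65 to -1.56. Of the 15001 tested genes, 79 (0.527%) were called lower with a log2 fold change at least as negative. In RNA from whole cultures, fewer cells that express a gene and less RNA per cell cannot be told apart.

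The antisense gene *NKILA*, a long noncoding RNA, lies opposite 5.98% of the exonic bases of *PMEPA1* and fell alongside it. It was at 4.92, 4.98 and 4.72 CPM in the controls and at 1.49, 1.24 and 1.77 CPM with DAPT, which gave a log2 fold change of -1.70 ± 0.20 (adjusted p = 8.42e-07, Benjamini-Hochberg over all genes tested in edgeR). The reads were counted by strand. Among 293 genes whose exons lie at least 90% opposite those of a gene with 1000 or more reads, the median read density was 1.98% of that of the opposite gene. *NKILA* shares 13.1% of its own exonic bases with *PMEPA1*, and its count was 3.90% to 5.58% of the *PMEPA1* count in the 6 libraries. That ratio of counts takes no account of length and is not comparable with the ratio of densities. Per kilobase of exonic length, *NKILA* was at 1.86 and *PMEPA1* at 17.5 CPM in the controls. With DAPT the values were 0.572 and 5.73 CPM per kilobase. The part of opposite-strand reads in the *NKILA* count was not tested. The 5 genes of at least 10 CPM whose log2 levels, centred on their means, followed *PMEPA1* most closely were *ACKR3*, *KRT6A*, *NRARP*, *PTPRB* and *NEDD9*. Their root mean square differences from the *PMEPA1* profile over the 6 libraries were 0.06 to 0.13 on the log2 scale. Since libraries within a group differed little, this mainly picks genes with a similar difference between the groups. Their log2 fold changes lay between -1.75 and -1.43, against -1.60 for *PMEPA1*. Whether they share a regulator with *PMEPA1* was not tested. *NRARP*, which encodes a Notch-regulated ankyrin repeat protein, was at 49.1 to 60.9 CPM in the controls and at 19.1 to 21.8 CPM with DAPT.

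The 4 other tested feedback inhibitors had smaller differences, with log2 fold changes between -0.35 and 0.07. *SKIL* (ENSG00000136603, chromosome 3, 170357678 to 170396835, plus strand) encodes SnoN, a nuclear corepressor of SMAD complexes. It was at 129, 109 and 118 CPM in the controls and at 96.5, 90.4 and 93.7 CPM with DAPT. All DAPT libraries lay below all controls, but the nearest libraries of the groups were only 109 and 96.5 CPM. The log2 fold change was -0.35 ± 0.06, and -0.28 ± 0.05 without control replicate 1, in which *SKIL* was highest. *SKI* (ENSG00000157933, chromosome 1, 2228319 to 2310213, plus strand), its closest relative and another SMAD corepressor, was at 53.9, 53.7 and 57.3 CPM in the controls. With DAPT it was at 57.9, 57.7 and 57.5 CPM, and the groups were separated by less than 1 CPM. Its log2 fold change was 0.07 ± 0.06, the only positive value among the 9 tested genes.

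*SMAD7* and *SMAD6* encode inhibitory SMADs, which bind activated receptors in place of the signaling SMADs. *SMAD7* (ENSG00000101665, chromosome 18, 48919853 to 48952052, minus strand) was at 43.0, 45.9 and 47.9 CPM in the controls and at 40.1, 40.6 and 40.4 CPM with DAPT. The DAPT values were nearly equal to each other and all lay below the lowest control, which was control replicate 1. The log2 fold change was -0.17 ± 0.07 and was not past the threshold of an adjusted p-value of 0.05 with all libraries. It was past it at -0.21 ± 0.06 without control replicate 1, and at -0.17 with the replicate number as a block. *SMAD6* (ENSG00000137834, chromosome 15, 66702236 to 66782849, plus strand), which acts mainly on the related bone morphogenetic protein (BMP) branch, was at 76.4, 89.2 and 87.5 CPM in the controls. With DAPT it was at 78.5, 81.8 and 81.5 CPM, within the range of the controls. Its log2 fold change was -0.06 ± 0.06, and -0.13 ± 0.05 without control replicate 1, and neither was past the threshold.

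*LDLRAD4* (ENSG00000168675, chromosome 18, 13217498 to 13652755, plus strand), which encodes the relative of the PMEPA1 protein, was barely detected. It had 5, 3 and 4 reads in the control libraries and 0, 1 and 0 reads in the DAPT libraries, which is 12 against 1 read in all. The control counts lay at or just above the limit of 3 reads and the DAPT counts below it, so no fold change is given.

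The groups overlapped for both ligands. *TGFB1* (ENSG00000105329, chromosome 19, 41301587 to 41353911, minus strand) was at 71.1, 83.1 and 81.9 CPM in the controls and at 78.9, 67.3 and 67.1 CPM with DAPT. Control replicate 1 was the lowest control and DAPT replicate 1 was the highest treated library. The log2 fold change was -0.14 ± 0.07, not past the threshold, and -0.21 ± 0.06 without control replicate 1 or -0.22 without DAPT replicate 1, both past it. *TGFB2* (ENSG00000092969, chromosome 1, 218345336 to 218444619, plus strand) was at 13.3, 10.7 and 14.5 CPM in the controls and at 13.5, 8.77 and 9.91 CPM with DAPT. DAPT replicate 1 was again the highest treated library. Its log2 fold change was -0.25 ± 0.15, not past the threshold with all libraries, and -0.46 ± 0.14 without DAPT replicate 1, which was past it. Of the exonic bases of *TGFB2*, 22.7% also belong to *TGFB2-OT1*, which is read in the same direction. Reads lying there were assigned to neither gene, so the level of *TGFB2* is understated.

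Both receptors were nearly level between the groups. *TGFBR1* (ENSG00000106799, chromosome 9, 99104038 to 99154192, plus strand) was at 119, 111 and 120.1 CPM in the controls and at 107, 112 and 110.2 CPM with DAPT, with overlapping groups. Its log2 fold change was -0.09 ± 0.05. *TGFBR2* (ENSG00000163513, chromosome 3, 30606502 to 30694142, plus strand) was at 118, 113 and 110.5 CPM in the controls and at 109, 109 and 107 CPM with DAPT. The DAPT libraries lay just below the lowest control, and the log2 fold change was -0.07 ± 0.05. Neither receptor was past the threshold with all libraries or in any of the 14 alternative fits.

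**Figure D2:**
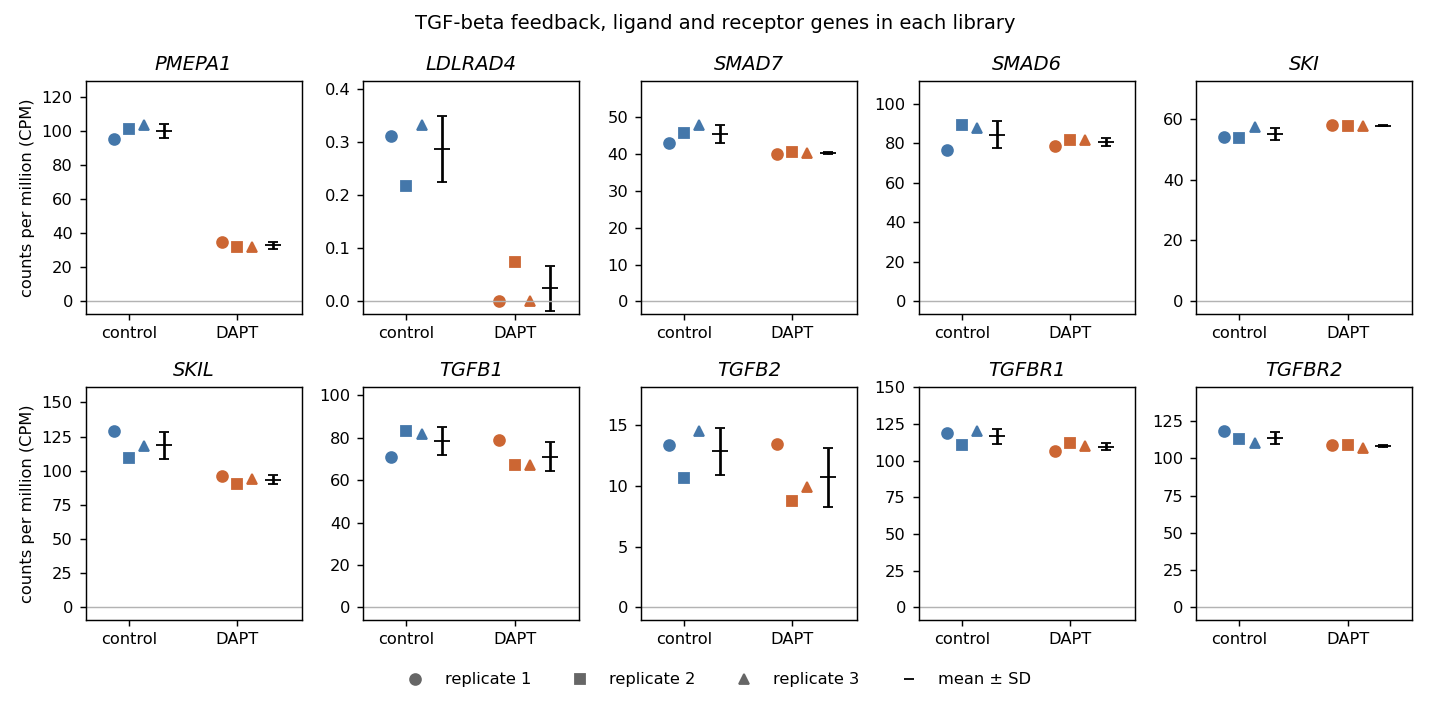
CPM in each library for the 10 genes, with control in blue, DAPT in orange, replicates 1 to 3 as circle, square and triangle, and the mean ± SD (n = 3) beside them. Each panel has its own linear axis that includes 0. *PMEPA1* falls from between 95.2 and 104 to between 31.7 and 35.0 CPM, *SKIL* falls less, and the groups overlap for *SMAD6*, *TGFB1*, *TGFB2* and *TGFBR1*.

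In counts, 2 of the 9 tested genes were called at the threshold of 0.05 on the adjusted p-value (edgeR, all genes fitted together), where 35.2% of the 15001 tested genes were called. Both were lower with DAPT (18.0% of all tested genes were called lower), and 0 were higher (17.2% of all tested genes). With scaling by library size alone, 2156 genes were called lower and 3445 higher, against 2707 and 2574. For the 9 genes the log2 fold changes had a median of -0.14, against 0.01 for all tested genes. Of the 4 tested feedback inhibitors other than *PMEPA1*, 1 was called lower. In 5 of the 9 genes the groups did not overlap, which was so for 46.3% of all tested genes. Without control replicate 1, 4 genes were called lower (*PMEPA1*, *SKIL*, *SMAD7* and *TGFB1*), against 37.1% of 15162 tested genes called and 19.1% called lower. Without DAPT replicate 1, 4 were called lower as well, with *TGFB2* in place of *SMAD7*, against 29.2% of 15190 tested genes called and 15.6% called lower. With the replicate block, 3 were called lower, against 35.3% of all tested genes called and 18.2% called lower. Since these genes were chosen with the comparison in view, nothing is read from these counts.

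**Figure D3:**
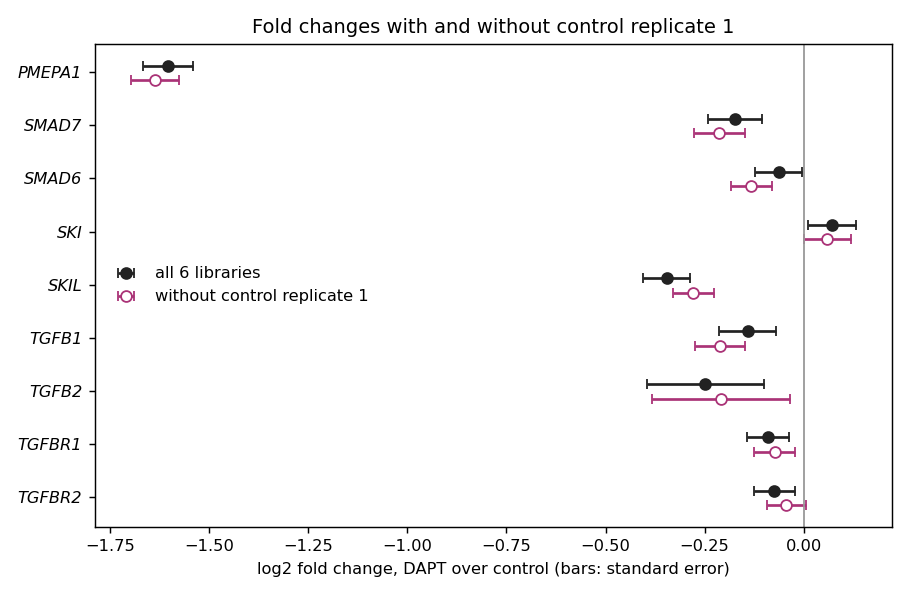
Log2 fold change (DAPT over control, horizontal axis) with its standard error for the 9 tested genes, from all 6 libraries (filled) and without control replicate 1 (open). *PMEPA1* lies at -1.60 and -1.64, while the other 8 genes lie between -0.35 and 0.07 with all libraries.

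Levels of different genes were compared per kilobase of exonic length (CPM per kb). In the controls *TGFB1* (24.3 ± 2.05 CPM per kb) and *TGFBR2* (24.2 ± 0.844 CPM per kb) were highest (SD, n = 3 each), and their ranges overlapped. *PMEPA1* followed at 17.5 ± 0.753 CPM per kb, with *TGFBR1* at 17.1 ± 0.747 and *SKIL* at 15.3 ± 1.27 CPM per kb, and each of these overlapped with its neighbour. *SMAD6*, *SMAD7* and *SKI* formed a lower step of 9.86 ± 0.813, 9.05 ± 0.490 and 8.39 ± 0.310 CPM per kb. Neighbours within this step overlapped, but *SKIL* and *SMAD6* did not. *TGFB2* was at 2.12 ± 0.322 CPM per kb, and *LDLRAD4* at 0.0171 CPM per kb was lowest. With DAPT, *PMEPA1* was at 5.73 ± 0.327 CPM per kb and thus moved from rank 3 to rank 8 of the 10 genes, below *SKI*, *SMAD6* and *SMAD7*.

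The rest of the pathway was followed with 85 further genes in 6 lists written from general knowledge, of which 75 were tested. The lists were written with earlier results of these data known. Their counts are therefore given as a description and not as a test, and nothing is read from them. Of the 75 tested genes, 27 were lower and 11 were higher with DAPT at the same threshold, and 37 were not called. Over all tested genes, 18.0% were called lower and 17.2% higher. Leaving out a library changed the number of higher genes to 17 (control replicate 1) or 7 (control replicates 2 or 3), and scaling by library size alone changed it to 17. Genes were named where they were called, averaged at least 1 CPM and did not overlap between groups, up to 4 in each direction per list. The adjusted p-values below are those of the same edgeR fit, adjusted over all tested genes.

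The target genes are those that respond to TGF-beta, and the list does not record in which direction each responds. Of 23 tested target genes, 12 were lower and 2 were higher (18.0% and 17.2% of all tested genes), with a median log2 fold change of -0.18. Among the lower calls, 1 was lost in 9 of 14 alternative fits and another in 1. *PTHLH*, which encodes parathyroid hormone-related protein, fell from 184 ± 12.9 to 100.3 ± 4.42 CPM (SD, n = 3 each; log2 fold change -0.87, adjusted p = 8.95e-11, edgeR). *MMP2*, a gelatinase, was at 83.1, 61.6 and 59.1 CPM in the controls and at 39.1, 33.9 and 34.4 CPM with DAPT. It was highest in control replicate 1, and its log2 fold change was -0.93 with and -0.75 without that library. *CCN2*, a matricellular growth factor, was also highest there (6.91 CPM, against 3.47 and 4.22 CPM in the other controls). Its log2 fold change was -0.93 with and -0.56 without control replicate 1. The fibroblast markers given above were also highest in control replicate 1, and their part was not tested. *MMP2* and *CCN2* were still called lower without that library (adjusted p = 2.67e-09 and 0.0410, edgeR). *CDKN1A* (log2 fold change 0.29, adjusted p = 1.16e-04, edgeR), an inhibitor of cyclin-dependent kinases, and *ID2* (0.23, adjusted p = 0.00203, edgeR) were higher with DAPT. *FN1*, which encodes fibronectin and was named after its values were seen, was at 453 CPM in control replicate 1 and at 262 and 268 CPM in the other controls. With DAPT it was at 223, 203 and 213 CPM. It was not called with all libraries (log2 fold change -0.62 ± 0.27), while without control replicate 1 it was (-0.31 ± 0.05, adjusted p = 8.72e-06, edgeR).

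Of the 15 tested negative regulators other than the feedback inhibitors above, 6 were lower and 1 was higher (18.0% and 17.2% of all tested genes). Their median log2 fold change was -0.01. Among the lower calls, 1 was lost in 8 of 14 alternative fits. *FST*, which encodes the activin-binding protein follistatin, was at 14.1, 8.09 and 7.87 CPM in the controls and at 2.40, 3.66 and 3.995 CPM with DAPT. All DAPT libraries lay below the controls, of which control replicate 1 was highest. The log2 fold change was -1.61 ± 0.29 (edgeR, adjusted p = 0.00343), and -1.27 without control replicate 1. *BAMBI*, a decoy receptor without kinase activity, fell from 30.0 ± 0.413 to 18.2 ± 0.488 CPM (SD, n = 3 each; log2 fold change -0.72, adjusted p = 1.64e-07, edgeR). *FSTL3*, which like *FST* encodes an inhibitor of activins, had a log2 fold change of -0.43 and *TGIF2*, a SMAD corepressor, of -0.22. *NEDD4L*, a ubiquitin ligase, was higher (0.15, adjusted p = 0.0231, edgeR), but lost its call in 2 of 14 alternative fits. *GREM1*, a BMP antagonist, was at 65.0 CPM in control replicate 1 and at most at 0.433 CPM in the other 5 libraries, and it was not tested.

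Of the 9 tested genes for latency and activation of TGF-beta, 5 were lower and 1 was higher (18.0% and 17.2% of all tested genes). Their median log2 fold change was -0.34. *ITGB6*, a subunit of the epithelial integrin that releases TGF-beta from its latent complex, was at 121, 113 and 115 CPM in the controls and at 63.4, 63.8 and 60.5 CPM with DAPT. The log2 fold change was -0.90 ± 0.05 (edgeR, adjusted p = 2.56e-11). *ITGB8*, the subunit of another activating integrin, moved the other way, from 180 ± 12.1 to 221 ± 13.3 CPM (SD, n = 3 each; log2 fold change 0.30, adjusted p = 2.88e-04, edgeR). *LTBP2*, of the family of latent TGF-beta binding proteins, had a log2 fold change of -0.52 and *FURIN*, the protease that cleaves the precursor, of -0.36. *THBS1*, an activator in the matrix, had a log2 fold change of -0.70 with all libraries and of -0.51 without control replicate 1, where it was highest (354 CPM, against 237 and 261 CPM in the other controls). Its call at an adjusted p-value under 0.05 was lost without control replicate 3 or any single DAPT library (adjusted p between 0.0755 and 0.117, edgeR). Over all 14 alternative fits it was lost in 5.

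Among the 10 tested SMADs and transducers, 1 was lower and 3 were higher (18.0% and 17.2% of all tested genes). Their median log2 fold change was 0.12. *SMAD3* was at 418, 408 and 410.4 CPM in the controls and at 322, 308 and 319 CPM with DAPT, a log2 fold change of -0.38 ± 0.05 (edgeR, adjusted p = 1.38e-06). Its partner *SMAD4* rose from 65.3 ± 3.77 to 79.0 ± 4.35 CPM (SD, n = 3 each; log2 fold change 0.27, adjusted p = 0.00121, edgeR). *ZFYVE9*, which anchors SMADs at endosomes, and the kinase gene *MAP3K7* had log2 fold changes of 0.27 and 0.15. *ZFYVE9* lost its call without control replicate 2 or DAPT replicate 3, and *MAP3K7* in 4 of the 6 fits that left out a library. Over all 14 alternative fits *MAP3K7* lost its call in 6.

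The 10 other tested receptors had a median log2 fold change of 0.21. Of them, 0 were lower and 3 were higher (18.0% and 17.2% of all tested genes). These were *ACVR2A* (0.35) and *ACVR1C* (0.35), receptors of the activin branch, and *BMPR2* (0.18), the type II receptor of BMPs. Each of these 3 calls was lost when certain single libraries were left out, in 4 of 6 fits for *ACVR2A* and *ACVR1C* and in 2 of 6 for *BMPR2*. Over all 14 alternative fits the call was lost in 7 for *ACVR2A*, 6 for *ACVR1C* and 2 for *BMPR2*. *ENG*, a coreceptor of endothelium and fibroblasts, was at 5.73 CPM in control replicate 1 and at 0.538 to 1.52 CPM elsewhere. Its call depended on the fit. The log2 fold change of -1.99 ± 0.85 was not past the threshold, nor was -0.86 ± 0.38 without control replicate 1, whereas *ENG* was called lower with the replicate block (-1.91 ± 0.35), by DESeq2, by limma-voom and in the fit that is not robust. Of the 8 other tested ligands, 3 were lower and 1 was higher (18.0% and 17.2% of all tested genes). Their median log2 fold change was -0.33. *BMP7* (-0.46), *BMP2* (-0.45) and *INHBA* (-0.35), which encodes the activin A subunit, were lower. *INHBE*, which encodes a subunit of activin E, rose from 0.983 ± 0.512 to 4.40 ± 0.873 CPM (SD, n = 3 each; log2 fold change 2.13 ± 0.27, adjusted p = 3.29e-06, edgeR).

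**Figure D4:**
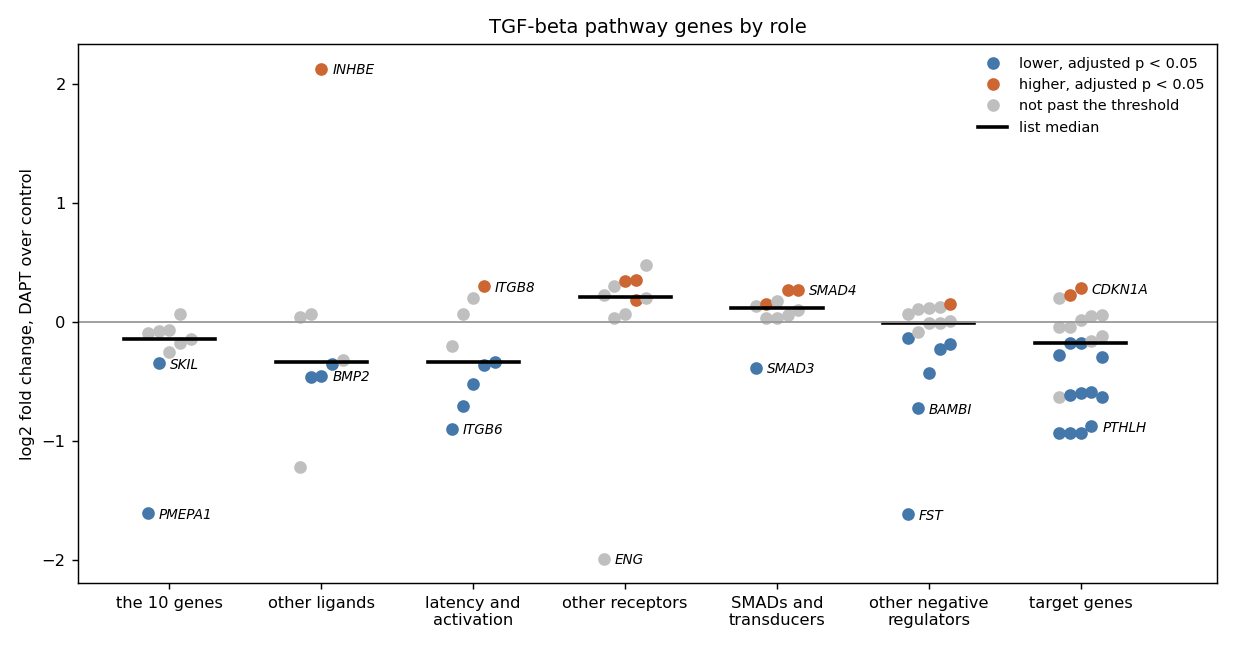
Log2 fold change (DAPT over control, vertical axis) of the tested genes in 7 groups by role, 1 point per gene, blue where called lower, orange where called higher and grey where not called, with a black line at each group's median. *PMEPA1* and *FST* are the lowest called genes, *INHBE* is the highest, and the grey point of *ENG* lies at -1.99 with and would lie at -0.86 without control replicate 1.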

How the data were processed

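Per the file headers, the authors counted single-end reads over the exons of each Ensembl gene (release 96) with featureCounts 1.6.3, using the strand of the reads. The study's methods name Trim Galore and HISAT2 with GRCh38. The deposited values are read counts without normalization. Reads with several mapping positions, or over several genes, are not counted under the default settings of that tool. Groups and replicate numbers came from the sample labels.

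In R 4.3.3, genes were filtered by expression (edgeR 4.0.16, minimum count 10) and scaled by TMM. DAPT and control were compared by a quasi-likelihood test (robust, no covariates), with Benjamini-Hochberg adjustment over 15001 genes at a threshold of 0.05. CPM are TMM-scaled, and standard errors were derived from the test statistic. Current symbols were matched by Ensembl identifier (58472 of 58884 genes), and coordinates were taken from the count tables. Promoters came from RefSeq. The 10 genes and the lists were chosen with earlier results of these data known. Besides the 10 genes, up to 4 called genes per list and direction were named (mean of at least 1 CPM, groups without overlap, largest changes first), as were the 5 genes of at least 10 CPM nearest *PMEPA1* in profile. *FN1*, *GREM1*, *ENG* and *NKILA* were named after their values were seen. The profile of *PMEPA1* was compared on the log2(CPM + 0.5) scale after centring each gene on its mean. Replicate libraries differed by more than counting noise (chi-square per degree of freedom 1.57 to 5.34), so none was taken for a library deposited 2 times. This does not show that they came from separate cultures. Alternatives were RLE factors, library size alone, DESeq2 1.42.0, limma-voom (limma 3.58.1), other filters, a fit that is not robust, a replicate block, and leaving out each library. The procedure was tested on simulated data. 1 gene that met the naming rule is not reported here. Protein sequences were not used here.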

Additional observations from a re-analysis of the deposited data

How the results depend on the processing

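Over 14 alternatives, the log2 fold change of *PMEPA1* kept its direction and its call, between -1.65 and -1.58 with 1 library omitted and between -1.61 and -1.56 otherwise, and *SKIL* was called lower in all 14. All 9 tested genes kept their sign. The number of these genes called lower was 2 at the lowest and 4 at the highest with 1 library omitted, and 2 or 3 otherwise. *SMAD7* passed the threshold under 4 alternatives, *TGFB1* under 2 and *TGFB2* under 1. Of the other pathway genes, between 24 and 27 were lower and between 7 and 17 higher when a library was left out, and 17 were higher with scaling by library size alone. Among all genes, 2574 were called higher and 2707 lower, against 3445 and 2156 with library size alone and 1668 and 1973 with DESeq2. With 1 library omitted, between 1901 and 2726 of all genes were called higher and between 2190 and 2892 lower. The cause was not tested.

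Same-numbered libraries had correlations of 0.0173, 0.0252 and 0.00382 in their deviations from the group means, too low to pair them, and in 1 of 3 pairs libraries of another number correlated better. With the replicate block, 5295 genes were called in all, 5100 of them among the 5281 without it, and the *PMEPA1* log2 fold change was -1.60. Depth limits *LDLRAD4*, with 13 reads in all libraries.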
